A study of Mus musculus with 6 samples.

Results

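The replication-dependent histone genes are the multicopy genes that supply linker histone H1 and the core histones H2A, H2B, H3 and H4 for newly copied DNA. Members were chosen by symbol alone, as the rows named H1f1 to H1f5, H2ac, H2bc, H3c or H4c followed by a number. This gave 61 of the 16022 rows of the deposited table: 5 for H1, 16 for H2A, 16 for H2B, 12 for H3 and 12 for H4. The samples were RNA-seq libraries of LSK cells, which are mouse marrow cells sorted as lacking lineage markers and carrying high Sca-1 and c-kit, and which include the blood-forming stem cells and their early progeny. The series concerns how HDAC6, a mainly cytoplasmic deacetylase, acts on the enzyme IDH1 in these cells. It compares 3 HDAC6 knockout samples with 3 wild-type (WT) samples. The labels give the genotype as KO or WT and name no strain, age, allele or deleted exon, and they do not say whether each sample was a different animal. A p-value here sets a difference against the spread among these samples, which may be technical.

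Most mRNAs end in a poly(A) tail, but the mRNAs of replication-dependent histones end just after a short stem-loop. SLBP binds that stem-loop, and U7 snRNP directs the cut behind it. The genes sit in clusters, are switched on as cells enter S phase through NPAT, and their mRNAs are destroyed when DNA synthesis stops. A part of them can also be polyadenylated, in particular in cells that leave the cycle. The labels give total RNA as the starting material and do not say whether poly(A) RNA was selected.

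Depth and labels were checked first. Total counts per library ran from 25993988 to 28743694. Hdac6, the targeted gene, had 9.62, 7.69 and 11.3 CPM (counts scaled to library size) in the knockout libraries, against 68.0, 58.2 and 54.3 CPM in the WT libraries. edgeR fitted a log2 fold change of -2.66 (SE 0.19) at an adjusted p of 0.000594 and called no other gene among the 12875 tested. Which part of Hdac6 was deleted is not given, and reads from what is left of the gene would still be counted. Kit and Ly6a, which encode the c-kit and Sca-1 proteins of the sort, were present in every library. Knockout replicate 3 stood apart from its group, since its counts lay closer to those of each WT library, with a chi-square over degrees of freedom of 23.8 to 32.7, than to those of the other knockout libraries, at 48.9 and 52.9. Without it edgeR called 44 genes, of which 0 were histone members.

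As a group, the histone genes lay lower in the knockout in most cases, but no single gene passed the test. Of the 61 members, 45 passed the filter on low counts and were tested, and 0 of them were called at an adjusted p under 0.05 by edgeR, against a background of 0.00777% of all genes tested. DESeq2 also called 0, against a background of 1.35% of genes in either direction and 0.456% lower. At an unadjusted p under 0.05 edgeR gave 6 members lower, where 6.15% of all tested genes were lower, and 0 higher, where 7.24% of all tested genes were higher. The fitted log2 fold change was below 0 in 36 of the 45 tested members and in 50.5% of all tested genes. Its median was -0.44 over the tested members and -0.003 over all tested genes. In 10 of the 45 tested members every knockout library lay below every WT library, against a background of 9.71% of all tested genes. In 0 members did every knockout library lie above every WT library, against a background of 8.86%.

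A filter on low counts can favour a direction, so members on either side of it were counted. Of the 45 tested members, 35 reached its limit of 0.366 CPM in every library, 4 did so in all WT but not all knockout libraries, and 4 in all knockout but not all WT libraries. The remaining 2 reached it throughout neither group. When all 61 members were fitted without a filter, 45 lay below WT and 16 above, with a median log2 fold change of -0.44 against 0.02 over all rows. On this wider set the groups did not overlap for 11 members lower in the knockout, where 8.28% of all rows did so, and for 2 members higher, where 7.77% of all rows did so.

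**Figure D1:**
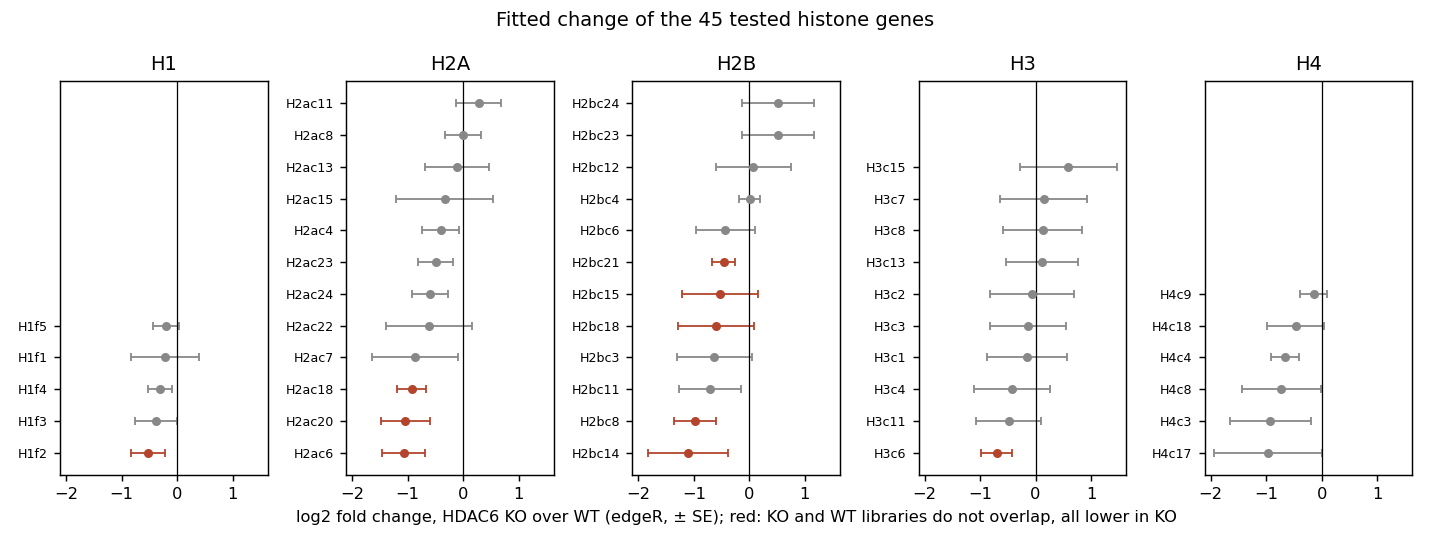
Each point is the fitted log2 fold change of a tested histone gene, knockout over WT, with its standard error, in a panel per histone type. Red points mark the 10 genes whose knockout libraries all lie below their WT libraries, and most points of every type lie left of 0, with the lowest share on that side among the H3 genes, at 6 of 10.

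Some copies of a type are near-identical, and reads that fit several copies may have been divided among them, so sums per type were set beside the single genes. In 55 of the 61 members the deposited count was not whole in at least 1 library. The H1 sum was 60.3, 49.8 and 44.2 CPM in the knockout libraries, against 57.8, 49.7 and 78.9 CPM in the WT libraries, a log2 fold change of -0.27 (SE 0.19). The H2A sum was 439, 413 and 317 CPM in the knockout libraries, against 612, 297 and 774 CPM in the WT libraries, a log2 fold change of -0.53 (SE 0.31). For both sums WT replicate 3 was the highest library, and the groups overlapped.

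The H2B sum was 61.8, 57.6 and 58.2 CPM in the knockout libraries, against 76.5, 66.4 and 61.5 CPM in the WT libraries, a log2 fold change of -0.20 (SE 0.13). Its groups overlapped only through knockout replicate 1 and WT replicate 3. The H3 sum was 13.1, 13.5 and 12.9 CPM in the knockout libraries, against 17.6, 12.3 and 20.2 CPM in the WT libraries, a log2 fold change of -0.34 (SE 0.22). The H4 sum was 25.2, 19.1 and 19.5 CPM in the knockout libraries, against 30.3, 24.9 and 34.0 CPM in the WT libraries, a log2 fold change of -0.48 (SE 0.19). The H4 groups overlapped only because knockout replicate 1 stood slightly above WT replicate 2. None of the 5 sums passed the threshold over all rows of that table, where 0.00779% of rows did.

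**Figure D2:**
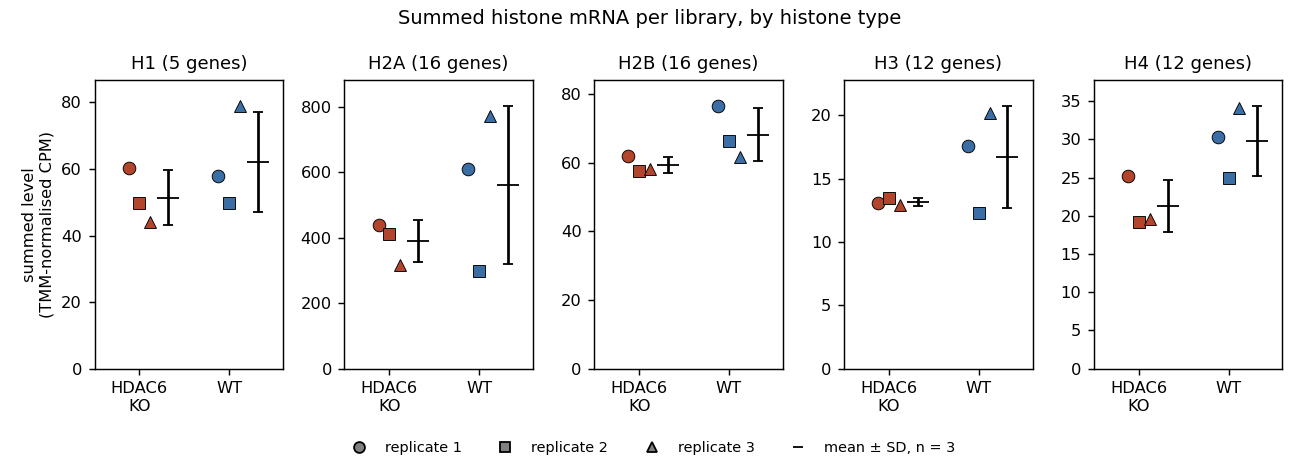
Summed TMM-normalised CPM of all genes of each histone type, by library, with the mean ± SD of 3 libraries beside the points. The WT libraries are spread more widely than the knockout libraries for every type, and WT replicate 3 is the highest point for H1, H2A, H3 and H4.

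On the deposited FPKM scale, which divides by length and lacks the TMM factors used for CPM, the type sums of H2B and H4 did not overlap. The H2B members summed to 116, 105 and 110 FPKM in the knockout libraries, against 157, 137 and 119 FPKM in the WT libraries. The H4 members summed to 129, 100.6 and 104 FPKM in the knockout libraries, against 165, 143 and 174 FPKM in the WT libraries. On this scale 13 of the 45 tested members had every knockout library below every WT library, against a background of 12.2% of all tested genes, and H1f4, H2bc11 and H4c4 joined the 10 seen in CPM. A length-scaled sum gives more weight to short genes than a sum of counts. The TMM factors left out here ran from 0.952 in knockout replicate 1 to 1.034 in WT replicate 2. Whether length or these factors separated the groups on this scale was not tested.

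Over all types the members summed to 600, 553 and 452 CPM in the knockout libraries, against 794, 451 and 968 CPM in the WT libraries. The means were 535 ± 75.6 CPM in the knockout and 738 ± 264 CPM in WT (SD, n = 3 each), and WT replicate 2 lay below every knockout library. The members took 0.0520% ± 0.00577 of all counts in the knockout and 0.0755% ± 0.0265 in WT (SD, n = 3 each). In bulk samples fewer cycling cells and less histone mRNA per cell cannot be told apart.

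The deposited levels are those of any reads that reached these genes, and the reference shows which of the transcripts carry the stem-loop. A stem of 6 base pairs that begins GG, around a loop of 4 bases that begins TT, was found in 40 of the 60 members that matched a GENCODE M21 transcript of GRCm38. The authors' build was GRCm39, so these sequences serve to show the element and not to place the reads. The commonest form stood in 24 members, while H4 genes carried forms of their own. The sequences below are the sites of the members whose values are described next, with the stem in capitals, the loop in lower case between its arms and the flanks in lower case.
H2ac23: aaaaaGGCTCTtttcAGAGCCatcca
H2ac18: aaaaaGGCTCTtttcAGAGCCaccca
H2ac20: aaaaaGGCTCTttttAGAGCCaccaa
H2bc8: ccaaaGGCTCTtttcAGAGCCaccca
H3c6: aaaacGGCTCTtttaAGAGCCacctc
H4c4: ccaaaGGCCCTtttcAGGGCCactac
H4c9: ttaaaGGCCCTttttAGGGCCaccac
H4c11: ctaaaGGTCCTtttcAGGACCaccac
The form of H2ac23, H2ac18 and H2bc8 was the one shared by 24 genes of H1, H2A, H2B and H3, and that of H3c6, with another last base in the loop, stood in 5 H2B and H3 genes. The stem of H4c4 and H4c9 was found in 8 H4 genes and in no other type, and that of H4c11 in 2 H4 genes. In 22 members the annotated transcript ended at most 74 bases after the stem-loop. In 18 members it went on for 151 bases or more, and in 20 no stem-loop was found in the annotated transcript, which for some ends with the coding sequence.

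H1 is the linker histone that binds where DNA enters and leaves the nucleosome, and its 5 genes were all tested. H1f5 had 33.2, 27.1 and 20.6 CPM in the knockout libraries, against 28.9, 23.5 and 40.5 CPM in the WT libraries. H1f4 had 18.1, 14.7 and 15.7 CPM in the knockout libraries, against 18, 16.97 and 25.02 CPM in the WT libraries. For both genes WT replicate 3 was the highest library and the groups overlapped, and the log2 fold changes were -0.20 (SE 0.24) for H1f5 and -0.31 (SE 0.21) for H1f4. H1f2 had 4.08, 4.43 and 4.36 CPM in the knockout libraries, against 7.06, 4.56 and 6.80 CPM in the WT libraries. It was the only H1 gene whose groups did not overlap, with WT replicate 2 just above the knockout range, and edgeR gave -0.52 (SE 0.30, adjusted p = 0.465) as its log2 fold change.

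The remaining H1 genes were low. H1f3 had 3.07, 2.76 and 2.42 CPM in the knockout libraries, against 2.45, 3.79 and 4.56 CPM in the WT libraries, a log2 fold change of -0.38 (SE 0.39). H1f1 had 1.80, 0.761 and 1.16 CPM in the knockout libraries, against 1.40, 0.884 and 2.04 CPM in the WT libraries, a log2 fold change of -0.22 (SE 0.61). Neither separated the groups. The make-up of the H1 sum was alike in both genotypes, with H1f5 at 52.0% ± 4.75 of it in the knockout and 49.5% ± 2.05 in WT, and H1f4 at 31.7% ± 3.27 in the knockout and 32.3% ± 1.58 in WT (SD, n = 3 each).

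H2A pairs with H2B in the nucleosome, and the H2A sum was carried by a single pair of copies. H2ac23 had 195, 176 and 138 CPM in the knockout libraries, against 265, 125 and 327 CPM in the WT libraries. H2ac24 had 194, 188 and 142 CPM in the knockout libraries, against 289, 133 and 369 CPM in the WT libraries. WT replicate 2 was the lowest and WT replicate 3 the highest of the 6 libraries for each, and the knockout values lay between them. The log2 fold changes were -0.50 (SE 0.31, adjusted p = 0.505) for H2ac23 and -0.59 (SE 0.33, adjusted p = 0.450) for H2ac24 by edgeR.

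H2ac23 and H2ac24 cannot be read as separate measurements. Their transcripts of 480 and 482 bases share an identical run of 452 bases, and the ratio of H2ac23 to H2ac24 stayed between 0.888 and 1.007 in the 6 libraries. Together they made up 88.3% ± 0.217 of the H2A sum in the knockout and 89.1% ± 1.99 in WT, and 64.2% ± 1.94 of all histone CPM in the knockout and 66.3% ± 7.88 in WT (SD, n = 3 each). Per length they were also the highest members, at means over the 6 libraries of 923 FPKM for H2ac24 and 607 FPKM for H2ac23, ahead of H2bc4 at 72.1 FPKM. Without this pair the H2A sum was 50.6, 49.3 and 36.8 CPM in the knockout libraries, against 58.1, 39.2 and 77.4 CPM in the WT libraries. The log2 fold change was then -0.35 (SE 0.23), and the groups still overlapped.

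Among the other H2A genes, H2ac18 had the smallest p of all members. H2ac18 had 4.61, 4.61 and 6.12 CPM in the knockout libraries, against 10.5, 8.29 and 10.5 CPM in the WT libraries. Every knockout library lay below every WT library, and the mean in the knockout was 52.4% of the WT mean. edgeR gave a log2 fold change of -0.93 (SE 0.26) and an adjusted p of 0.298, which ran from 0.0752 to 0.744 over the alternatives. The whole annotated transcript of its neighbour H2ac19, 528 bases, is contained in that of H2ac18, so the pair was also summed. Together they had 4.61, 4.61 and 6.78 CPM in the knockout libraries, against 10.5, 8.62 and 11.2 CPM in the WT libraries, and the groups did not overlap.

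H2ac8 and H2ac4 did not separate the groups. H2ac8 had 23.9, 24.8 and 12.7 CPM in the knockout libraries, against 18.9, 13.6 and 29.1 CPM in the WT libraries, a log2 fold change of -0.01 (SE 0.32). H2ac4 had 9.98, 9.61 and 7.74 CPM in the knockout libraries, against 12.3, 6.50 and 17.6 CPM in the WT libraries, a log2 fold change of -0.41 (SE 0.34). As with the leading pair, WT replicate 3 was the highest library for both. H2ac6 and H2ac20 are named after their values were seen. H2ac6 had 2.14, 1.48 and 2.17 CPM in the knockout libraries, against 4.51, 3.09 and 4.65 CPM in the WT libraries, and edgeR gave -1.08 (SE 0.39, adjusted p = 0.322) as its log2 fold change. H2ac20 had 2.46, 2.04 and 1.20 CPM in the knockout libraries, against 3.94, 2.66 and 5.16 CPM in the WT libraries, and edgeR gave -1.04 (SE 0.45, adjusted p = 0.358) as its log2 fold change. In both genes the groups did not overlap.

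H2B genes lie beside H2A genes, and several pairs of them start back to back from a common stretch. H2bc4, the largest H2B member, had 41.6, 33.7 and 33.1 CPM in the knockout libraries, against 45.7, 34.2 and 28.1 CPM in the WT libraries, a log2 fold change of 0.00 (SE 0.19). Unlike the leading H2A pair, it was lowest in WT replicate 3. H2bc21 had 10.1, 11.1 and 13.9 CPM in the knockout libraries, against 14.7, 16.8 and 16.8 CPM in the WT libraries. H2bc8 had 1.91, 2.60 and 3.68 CPM in the knockout libraries, against 6.54, 5.77 and 3.98 CPM in the WT libraries. In both genes every knockout library lay below every WT library, with knockout replicate 3 close to the lowest WT library. The log2 fold changes were -0.46 (SE 0.21, adjusted p = 0.375) for H2bc21 and -0.98 (SE 0.38, adjusted p = 0.333) for H2bc8 by edgeR. H2bc14, H2bc15 and H2bc18 also had groups that did not overlap, at means of 0.400 to 0.526 CPM in the knockout and 0.755 to 0.872 CPM in WT, and were picked out by that pattern.

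The share of H2bc8 in the H2B sum was 4.64% ± 1.62 in the knockout and 7.91% ± 1.24 in WT, and each knockout library lay below each WT library. The share of H2bc4 was 60.8% ± 5.62 in the knockout and 52.3% ± 7.02 in WT (SD, n = 3 each), and its groups overlapped. The groups also overlapped for the share of H2bc21, at 19.8% ± 3.85 in the knockout and 23.9% ± 4.26 in WT (SD, n = 3 each). H2bc23 and H2bc24 had counts that differed by at most 0.09 in any library, and summed to 1.53, 2.92 and 2.27 CPM in the knockout libraries, against 1.33, 1.23 and 2.09 CPM in the WT libraries.

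The stretch that H2bc8 shares with H2ac8 is shown because these genes had the levels just described with a common regulatory region. It is the interval between their annotated starts in RefSeq, on GRCm38.p6 at chr13:23571221-23571399, plus strand, with H2bc8 starting at its right end and H2ac8 running left from its left end. The interval between H2bc23 and H2ac23, at chr13:21810200-21810366, plus strand, is set under it, since H2ac23 is among the most abundant members and its partner had few counts. Capitals mark the CCAAT box, the TATA box written TATAAA and the octamer ATTTGCAT, searched on both strands, with no overlapping matches in any member's window.
H2ac8 and H2bc8: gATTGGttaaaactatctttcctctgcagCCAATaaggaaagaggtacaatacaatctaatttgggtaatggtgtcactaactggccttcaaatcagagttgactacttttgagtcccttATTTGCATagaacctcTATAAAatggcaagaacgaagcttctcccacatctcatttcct
H2bc23 and H2ac23: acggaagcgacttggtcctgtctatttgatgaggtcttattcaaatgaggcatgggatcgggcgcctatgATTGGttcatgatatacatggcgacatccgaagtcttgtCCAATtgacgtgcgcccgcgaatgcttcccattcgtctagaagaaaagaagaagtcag
The first interval held 2 CCAAT boxes, 1 octamer and 1 TATAAA, the octamer and TATAAA lying toward H2bc8. The second held 2 CCAAT boxes and neither of the other motifs. The H2ac23 window holds 3 CCAAT boxes, the last of which begins at the annotated start, just past this interval.

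From this common stretch, H2ac8 had a log2 fold change of -0.01 and H2bc8 one of -0.98. In deposited FPKM, H2ac8 stood at 58.3 ± 18.3 in the knockout and 60.8 ± 21.3 in WT, and H2bc8 at 10.9 ± 3.82 in the knockout and 22.5 ± 5.98 in WT (SD, n = 3 each). H2ac23 stood at 493 ± 72.5 FPKM in the knockout and 721 ± 293 FPKM in WT, and its partner H2bc23 at 1.88 ± 0.710 FPKM in the knockout and 1.81 ± 0.889 FPKM in WT (SD, n = 3 each). Of 8 such head-to-head pairs both genes were tested in 4. The other pairs of these 4 had log2 fold changes of 0.28 for H2ac11 and -0.71 for H2bc11, and of -0.33 for H2ac15 and -0.53 for H2bc15. These pairs were examined after the values were known, and the difference within a pair was not tested.

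Over all members with a RefSeq window of 250 bases before to 50 after the start, 55 in number with 56 windows, CCAAT was found in 85.7% and in 37.4% of all 32851 promoter windows. All windows of H1, H2A, H2B and H3 members held it, against 3 of 11 H4 windows. TATAAA was found in 57.1% of member windows and in 13.6% of all windows. The octamer, known as an element of H2B promoters, was found in 6 of 14 H2B and 5 of 16 H2A windows and in no H1, H3 or H4 window, which is 19.6% of member windows, and in 1.74% of all windows.

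H3 forms the core tetramer with H4, and a single H3 gene reached 5 CPM. H3c6 had 4.04, 4.65 and 5.69 CPM in the knockout libraries, against 8.91, 6.86 and 7.57 CPM in the WT libraries. Every knockout library lay below every WT library, and edgeR gave -0.70 (SE 0.28) as the log2 fold change and an adjusted p of 0.340. H3c6 and H3c7 share an identical run of 303 bases, and together they had 4.29, 5.32 and 6.31 CPM in the knockout libraries, against 9.53, 7.26 and 7.97 CPM in the WT libraries, again without overlap. H3c6 made up 36.5% ± 6.82 of the H3 sum in the knockout and 48.0% ± 9.52 in WT (SD, n = 3 each), with overlapping groups.

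The other H3 genes were all below 5 CPM and showed no common side. Of the 10 tested H3 members 6 had a log2 fold change below 0 and 4 above, with a median of -0.10. H3c14 and H3c15 were highest in different libraries, and H3c15 was lowest in WT replicate 1, the only library in which H3c14 had counts. H3c14 was at 0 in all libraries but WT replicate 1, where it had 1.02 CPM, while H3c15 had 1.59, 1.30 and 0.936 CPM in the knockout libraries, against 0.230, 0.276 and 2.04 CPM in the WT libraries. With their transcripts sharing a run of 666 bases, their sum was 1.59, 1.30 and 0.936 CPM in the knockout libraries, against 1.25, 0.276 and 2.04 CPM in the WT libraries.

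H4 is the most conserved core histone, and its gene copies encode nearly the same protein. H4c4 had 12.6, 9.57 and 8.48 CPM in the knockout libraries, against 16.1, 12.2 and 20.3 CPM in the WT libraries. WT replicate 3 was the highest library, and the groups overlapped through knockout replicate 1 and WT replicate 2. edgeR gave a log2 fold change of -0.66 (SE 0.25) and an adjusted p of 0.333. H4c9 had 8.91, 6.35 and 7.73 CPM in the knockout libraries, against 8.46, 8.62 and 8.28 CPM in the WT libraries, a log2 fold change of -0.14 (SE 0.25). The longest identical run between the H4c4 and H4c9 transcripts was 95 bases. H4c4 made up 47.8% ± 3.74 of the H4 sum in the knockout and 53.8% ± 5.36 in WT, and H4c9 36.0% ± 3.28 in the knockout and 28.95% ± 5.22 in WT (SD, n = 3 each), both with overlapping groups.

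The 250 bases before the RefSeq starts of H4c4 and H2ac18 are shown because H4c4 is the leading H4 gene and H2ac18 the member with the smallest p. They lie on GRCm38.p6, plus strand, at chr13:23581318-23581567 for H4c4 and chr3:96245247-96245496 for H2ac18, marked as above.
H4c4: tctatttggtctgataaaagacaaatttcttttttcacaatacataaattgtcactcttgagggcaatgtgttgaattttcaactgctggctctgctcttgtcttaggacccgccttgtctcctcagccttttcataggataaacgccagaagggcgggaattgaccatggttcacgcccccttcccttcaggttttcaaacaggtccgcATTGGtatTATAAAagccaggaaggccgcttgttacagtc
H2ac18: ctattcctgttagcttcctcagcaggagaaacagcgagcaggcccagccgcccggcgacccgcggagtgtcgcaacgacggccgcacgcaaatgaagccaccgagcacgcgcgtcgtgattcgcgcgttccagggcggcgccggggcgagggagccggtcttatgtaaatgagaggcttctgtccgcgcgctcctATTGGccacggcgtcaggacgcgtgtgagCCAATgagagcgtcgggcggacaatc
H4c4 is among the 3 H4 windows with a CCAAT box, which stands beside its TATAAA. H2ac18 has 2 CCAAT boxes in this stretch, and the TATAAA of its window lies after the annotated start.

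Of the tested members, 31 had means under 5 CPM in both groups, with values of 0.0917 to 5.16 CPM in single libraries. The 16 members that were not tested ranged from 0 to 1.02 CPM, and 7 of them were at 0 in at least 1 library, where a count of 0 allows a level of up to 3 counts, or 0.106 to 0.114 CPM, from counting error alone. H3c10 and H4c11 were the untested members with every knockout library above every WT library, and H2bc22 the untested member with every knockout library below. H3c10 had 0.578, 0.185 and 0.206 CPM in the knockout libraries, against 0, 0.0665 and 0 CPM in the WT libraries. H4c11 had 0.130, 0.111 and 0.263 CPM in the knockout libraries, against 0.0844, 0.0799 and 0.0458 CPM in the WT libraries, which are counts of 1.21 to 7.24. H4c17 and H4c18, with an identical run of 366 bases, summed to 1.93, 1.49 and 1.56 CPM in the knockout libraries, against 2.18, 2.33 and 3.08 CPM in the WT libraries, without overlap. These members were picked out after their values were seen.

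The members lie in a large cluster on mouse chromosome 13, with 50 members, and a smaller one on chromosome 3, with 10. The groups did not overlap, lower in the knockout, for 6 of the 38 tested members on chromosome 13 and for 4 of the 6 on chromosome 3, namely H2ac18, H2ac20, H2bc18 and H2bc21, where 9.71% of all tested genes did so. With 6 tested genes on chromosome 3, no difference between the clusters is read from these counts. The median log2 fold change was -0.43 on chromosome 13 and -0.53 on chromosome 3. Grouped by the annotated 3' end, the median log2 fold change was -0.59 for the 17 tested members with at most 74 bases after the stem-loop and -0.43 for the 14 with 151 bases or more. It was -0.22 for the 13 in which no stem-loop was found. These groupings were made after the values were known, and their differences were not tested.

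The libraries did not contribute equally. WT replicate 3 was the highest library for 26 of the 45 tested members, or 57.8%, where it was the highest for 15.1% of all tested genes. Knockout replicate 3 was the lowest library for 13 members and WT replicate 2 for 11. Averaged over the tested members, log2(CPM + 0.1) lay 0.09, 0.12 and 0.27 below the mean of the 6 libraries in the knockout libraries, while it stood 0.17 above, 0.19 below and 0.50 above in the WT libraries. Without WT replicate 3 the median log2 fold change of the tested members was -0.17, that of the H2A sum -0.22 and that of the H1 sum -0.06. Without knockout replicate 3 the median was -0.33. Without WT replicate 2 the H2A sum had a log2 fold change of -0.83, and it passed the threshold in neither case.

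**Figure D3:**
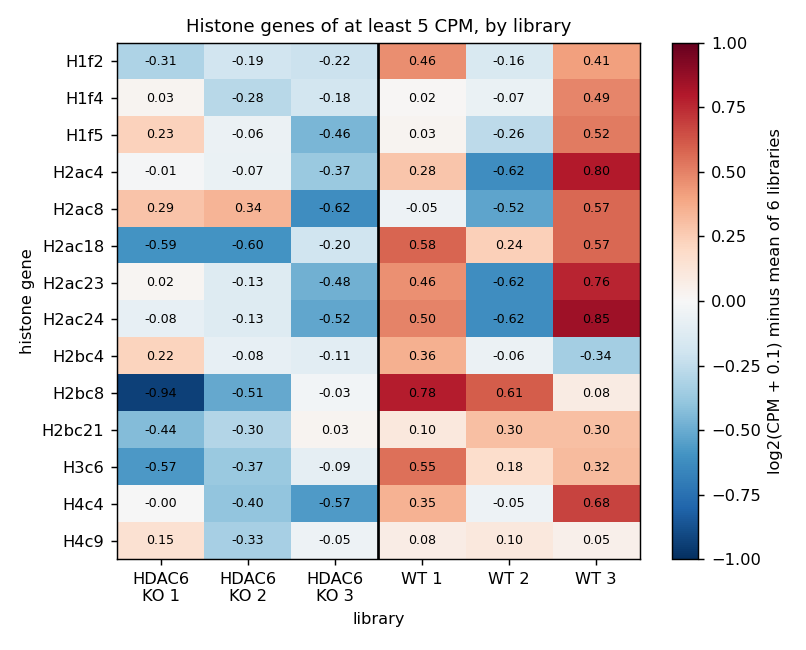
Each cell gives log2(CPM + 0.1) of a histone gene of at least 5 CPM in a library, minus the mean of the 6 libraries. H2ac4, H2ac23 and H2ac24 are low in WT replicate 2 and high in WT replicate 3, while H2ac18, H2bc8, H2bc21 and H3c6 are lower in all knockout than in all WT libraries.

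The genes that make, guard and place histones were set beside the members. The lists held 30 genes of histone mRNA transcription, processing and decay and 26 histone chaperones and related factors, all of them tested. Of these 56 genes 41 had a log2 fold change above 0 and 15 below, with a median of 0.09, and edgeR called 0 in either direction. DESeq2 called 3 higher, where 0.897% of all genes it tested were, and 0 lower, where 0.456% were. Unadjusted, edgeR gave 10 higher, where 7.24% of all tested genes were, and 1 lower, where 6.15% were. The processing list summed to 3819, 3616 and 3521 CPM in the knockout libraries, against 3311, 3316 and 3412 CPM in the WT libraries. The chaperone list summed to 7907, 7259 and 6601 CPM in the knockout libraries, against 6351, 6318 and 6309 CPM in the WT libraries. In both sums every knockout library lay above every WT library. A sum is weighted toward abundant genes. Averaged per gene as log2(CPM + 0.1) minus the mean of the 6 libraries, the chaperone list again separated the groups. The processing list then overlapped, at 0.114, -0.007 and -0.001 in the knockout libraries, against -0.088, -0.059 and 0.041 in the WT libraries.

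The 4 genes with the smallest p were all chaperones or partners of new histones. Chaf1a, the large subunit of the chromatin assembly factor that loads H3 and H4 behind the replication fork, had 131, 121 and 93.8 CPM in the knockout libraries, against 62.3, 38.0 and 65.3 CPM in the WT libraries. edgeR gave a log2 fold change of 1.06 (SE 0.21) and an adjusted p of 0.298. Npm1, a nucleolar protein that binds histones, had 1277, 1150 and 903 CPM in the knockout libraries, against 755, 789 and 767 CPM in the WT libraries. Hat1, which acetylates new H4, had 260, 230 and 212 CPM in the knockout libraries, against 173, 177 and 167 CPM in the WT libraries. Nap1l1, a carrier of H2A and H2B, had 456, 388 and 343 CPM in the knockout libraries, against 299, 272 and 303 CPM in the WT libraries. The groups did not overlap in any of these 4 genes, which were picked by their p. The log2 fold changes were 0.53 for Npm1 and 0.44 for Hat1 and Nap1l1, with adjusted p values of 0.298 by edgeR. Over the 56 genes every knockout library lay above every WT library in 14, against a background of 8.86% of all tested genes. It lay below in 3, against 9.71%. Slbp, the stem-loop binding protein, and Npat, the activator of histone genes, were named for their roles after their values were seen. Slbp had 385, 352 and 333 CPM in the knockout libraries, against 338, 330 and 315 CPM in the WT libraries, and Npat averaged 74.96 ± 4.02 CPM in the knockout and 70.9 ± 0.948 CPM in WT (SD, n = 3 each), both with overlapping groups.

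Genes expressed as cells copy their DNA lay on the opposite side from the histone genes. Of 22 listed S phase genes, Slbp and Mcm2 among them, 20 had a log2 fold change above 0 and 2 below, with a median of 0.23. Of all tested genes 50.5% lay below 0. By edgeR 0 were called, where 0.00777% of all tested genes were. DESeq2 called 1 higher, where 0.897% of all genes it tested were, and 0 lower, where 0.456% were. At an unadjusted p under 0.05 edgeR gave 6 higher, where 7.24% of all tested genes were, and 0 lower, where 6.15% were. Every knockout library lay above every WT library in 7, against a background of 8.86%, and below in 0, against 9.71%. The S phase genes summed to 9182, 8403 and 7468 CPM in the knockout libraries, against 7209, 7005 and 7442 CPM in the WT libraries. Knockout replicate 3 stood only just above WT replicate 3. The 4 with the smallest p were Ccne1, which drives entry into S phase, Rrm2 and Tk1, which supply nucleotides, and Mcm5, a part of the replicative helicase. Ccne1 had 25.2, 28.6 and 13.7 CPM in the knockout libraries, against 9.34, 7.60 and 7.12 CPM in the WT libraries, and edgeR gave 1.49 (SE 0.28, adjusted p = 0.298) as its log2 fold change. Rrm2 had a log2 fold change of 0.52, Tk1 one of 0.41 and Mcm5 one of 0.31. Within each genotype the libraries had the same order by the S phase sum as by the histone sum, with replicate 1 the highest and replicate 3 the lowest in the knockout, and replicate 3 the highest and replicate 2 the lowest in WT. With 3 libraries a group no correlation is given.

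**Figure D4:**
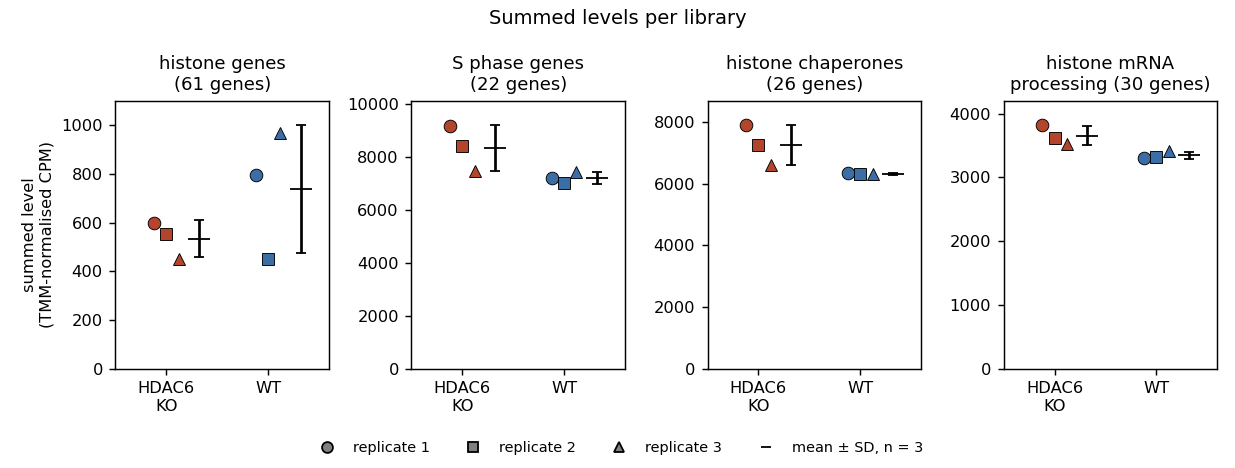
Summed TMM-normalised CPM of the histone genes, the S phase genes, the histone chaperones and the histone mRNA processing genes, by library, with the mean ± SD of 3 libraries. The knockout libraries lie above the WT libraries in the 3 right panels, whereas the histone sums of the groups overlap, with knockout values of 452 to 600 CPM and WT values of 451 to 968 CPM.

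Other listed histone genes, most of them replication-independent variants made outside S phase as well, had a smaller median change than the members. Of 24 listed symbols 13 were in the table and 12 were tested, with 5 above WT and 7 below, a median log2 fold change of -0.06 and 0 calls by edgeR, while 0 had an unadjusted p under 0.05. The difference from the members was not tested. The 4 with the smallest p all had means above WT. H2ax, the H2A form that is phosphorylated at DNA breaks, had 346, 322 and 254 CPM in the knockout libraries, against 275, 157 and 326 CPM in the WT libraries, a log2 fold change of 0.28 (SE 0.23). As with the leading H2A pair, WT replicate 2 was its lowest library, but its knockout mean was above the WT mean. H2az1, an H2A variant of promoters, had 1868, 1467 and 1238 CPM in the knockout libraries, against 1318, 1281 and 1313 CPM in the WT libraries, with a log2 fold change of 0.23. Cenpa, the H3 variant of centromeres, had 127, 118 and 119 CPM in the knockout libraries, against 109, 97.0 and 106 CPM in the WT libraries, with a log2 fold change of 0.22 and no overlap. H3f3a, which encodes H3.3, had a log2 fold change of 0.11. None of the 14 listed non-histone RNAs without a poly(A) tail, such as Rn7sk and Rmrp, were rows of the table, so selection for tails was not tested with them.

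Markers of the sort and of other cells were set beside the histone values. Of the 5 listed LSK genes, Ly6a had a log2 fold change of 0.71 and Kit one of -0.54, Cd34 one of -0.24 and Ptprc one of -0.16, and 0 were called by edgeR. DESeq2 called Ly6a higher (adjusted p = 0.00718) and Kit lower (adjusted p = 0.0471), and edgeR called Kit when knockout replicate 3 was left out (adjusted p = 0.0412). The 14 mature lineage markers summed to 318, 414 and 368 CPM in the knockout libraries, against 356, 374 and 440 CPM in the WT libraries, and of the 10 tested 6 lay below WT and 4 above. Cd3e and Ly6g, which define T cells and neutrophils, were at 0 in all knockout libraries and reached at most 0.151 and 0.568 CPM in WT. Cd3g, another T cell gene, had 0.184, 0.254 and 0.471 CPM in the knockout libraries and 0 in all WT libraries. The neutrophil granule genes Ltf and Ngp were, like the leading H2A pair, highest in WT replicate 3. Ltf had 2.86, 2.61 and 1.02 CPM in the knockout libraries, against 15.2, 5.87 and 24.7 CPM in the WT libraries, and Ngp had 4.11, 6.13 and 2.25 CPM in the knockout libraries, against 13.1, 10.1 and 30.1 CPM in the WT libraries. Both were lowest in knockout replicate 3, where the H2A pair was lowest in WT replicate 2, and in both every knockout library lay below every WT library. DESeq2 called Ltf (adjusted p = 3.55e-05) and Ngp (adjusted p = 0.00124) lower, while edgeR called 0 of this list. Ncr1, of natural killer cells, had 1.62, 7.50 and 14.1 CPM in the knockout libraries, against 0.646, 1.56 and 2.54 CPM in the WT libraries, with overlapping groups, and DESeq2 called it higher (adjusted p = 0.0424). Nkg7, of the same cells, averaged 280 ± 28.7 CPM in the knockout and 286 ± 25.4 CPM in WT (SD, n = 3 each). The part of such cells in the histone values was not tested.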

How the data were processed

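For every gene symbol the deposited table gives each library's estimated count and its FPKM, per the file headers. GRCm39 is the build in the submitters' processing notes, and featureCounts 2.0.3, SAMtools 1.13, HISAT2 2.2.1 and DESeq2 are their tools, without roles. Those notes and the headers name no annotation, strand setting or treatment of shared reads. Between 19.6% and 20.9% of the deposited counts per library were not whole, and all were rounded before testing. Copies of a histone type share sequence, so values of single members depend on how the authors divided or dropped such reads.

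Knockout was compared with WT over the whole table with edgeR 4.0.16 and its quasi-likelihood test (R 4.3.3, limma 3.58.1) after filterByExpr (minimum count 10) and TMM normalization, with Benjamini-Hochberg adjustment over all 12875 genes and a threshold of 0.05. Type sums replaced the members by a row per type in the same fit. Levels are TMM-normalised CPM; the deposited FPKM values served for comparisons between genes. TMM factors ran from 0.952 to 1.034. On counts simulated from these libraries edgeR kept unchanged genes near its nominal rate and missed most small changes, so 0 calls do not show that a gene was unchanged. DESeq2 passed clearly more unchanged genes than its threshold allows, so its calls stand beside those of edgeR and not in their place. Library pairs differed beyond counting noise, with a chi-square over degrees of freedom of 32.4 to 52.9 within groups and 23.8 to 82.9 between them, so each library counted as 1 sample. DESeq2 1.42.0, RLE or no composition scaling, other filters, the newer edgeR option, a replicate block and each library left out were the alternatives. With 3 against 3, an exact permutation test of a single value cannot go below 0.1.

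The members and lists were chosen with earlier results of these data known. Values per library are given for members of at least 5 CPM in a group, the H1 genes, Hdac6 and the 4 genes with the smallest p of each list; other named genes are said to be chosen after their values were seen.

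Of the 61 members 60 matched RefSeq and GENCODE M21 by accession. Stem-loops are the last match in the transcript of a stem of 6 and a loop of 4 bases; promoters are RefSeq windows on GRCm38.p6. Neither build is the authors', so coordinates are those of GRCm38 only.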

Additional observations from a re-analysis of the deposited data

How the results depend on the processing

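The 5 type sums kept their direction and stayed short of the threshold in all 71 values that the alternatives gave for them together. Under any alternative for members 0 members were called. Over single libraries left out, the log2 fold change ran from -0.41 to -0.06 for H1, -0.83 to -0.22 for H2A, -0.26 to -0.11 for H2B, -0.52 to -0.18 for H3 and -0.62 to -0.37 for H4. The median of the tested members ran from -0.53 to -0.17. Removing H2ac23 and H2ac24 from the H2A sum was chosen after seeing the data.

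Over the whole table DESeq2 called 181 genes where edgeR called 1, and edgeR called 1 to 44 genes when single libraries were left out, with 44 without knockout replicate 3 and 4 without knockout replicate 1. Of the processing and chaperone genes DESeq2 called 3 and edgeR 0, with 0 to 1 over single libraries left out. Counts of calls therefore depend on the tool and on the libraries included, and DESeq2 passed more unchanged genes than its threshold allows on simulated counts.

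Of 264 values for 21 of the members named with their levels, 250 kept direction and side, and 14 changed sign. Those 14 were values of H2ac8, H2bc4, H1f1 and H1f5, whose main log2 fold changes were all smaller in size than their SE. H2ac8 had a log2 fold change of 0.0011 with RLE normalization, 0.0125 without a filter and 0.0024 by DESeq2, and ran from -0.23 to 0.34 over single libraries left out. H2bc4 had -0.0735 with library size alone and -0.0083 with the stricter filter, and ran from -0.14 to 0.21. H1f1 ran from -0.58 to 0.12 and H1f5 from -0.38 to 0.0478. Library size alone also moved the median of all tested genes to -0.08.

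The replicate numbers showed no sign of pairing the samples, since deviations of same-numbered libraries correlated at 0.03, -0.04 and -0.12. With so few libraries this cannot show that the samples were unpaired. With the replicate block 0 members were called, the median of the members was -0.34, and H2ac8 had a log2 fold change of 0.0153.

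Low counts limit the members under 5 CPM, whose standard errors often exceeded their log2 fold changes.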
